A study of Mus musculus with 16 samples.

Results

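The transcripts of 10 transcription factor genes that hold mouse embryonic stem cells in the pluripotent state were examined in RNA bisulfite sequencing libraries of Dnmt2-/- and wild-type cells. The genes were Pou5f1, Sox2, Nanog, Esrrb, Klf4, Klf5, Nr0b1, Tfcp2l1, Tbx3 and Prdm14. They were chosen by name, and 13 of the 15330 RefSeq mRNA references in the libraries of rRNA-depleted long RNA belonged to them. None of these genes lies on chromosome 8. For each reference, its coverage by reads and the share of cytosines that resisted conversion were compared between the genotypes.

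Pou5f1 (also called Oct4), a POU-domain factor, and Sox2, an HMG-box factor, bind DNA as partners and switch on their own genes, Nanog and many others. Around this pair a wider circuit of Nanog, Esrrb, Klf4, Klf5, Tfcp2l1 and Tbx3 keeps mouse embryonic stem cells self-renewing. Parts of that circuit answer to leukemia inhibitory factor (LIF) through Stat3, and Nr0b1 and Prdm14 act in it mainly as repressors.

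Dnmt2, whose gene is Trdmt1, methylates cytosines of tRNAs. Bisulfite converts unmethylated cytosine and leaves 5-methylcytosine, so a site's non-conversion, the percentage of its reads that still show a cytosine, is read as an upper estimate of its methylation. The series has 3 Dnmt2-/- and 3 wild-type libraries of this RNA fraction, all from J1-background embryonic stem cells that had been grown on mouse embryonic fibroblast feeders in medium with serum and LIF. The feeders were removed by letting them attach to dishes, and RNA above 200 nt was depleted of rRNA, fragmented and bisulfite treated. The labels do not say whether replicates came from separate cultures, lines or clones, so the spread behind the p-values is that of these libraries and may be technical. The small and the undepleted fractions were not used here.

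The knockout libraries listed 3722301, 3608498 and 3561539 cytosines, against 3338384, 4289381 and 2304342 in wild type, with a median coverage of 9, 9 and 10 reads against 8, 11 and 6. Wild-type replicate 3 was the shallowest, at a summed coverage of 37786723 against 79955585 to 143488903 in the other 5 libraries. The scaled coverage of Trdmt1 was 1.42, 0.501 and 1.07 in knockout libraries 1, 2 and 3, against 4.73, 3.80 and 3.21 in wild-type libraries 1, 2 and 3. These groups did not overlap, in the direction of the labels. Of 14 feeder fibroblast genes, 5 (Lum, Pdgfra, Pdgfrb, Postn and Prrx1) had no listed cytosine in any library. The other 9 summed to scaled coverages of 18.4, 16.1 and 16.7 in the knockout against 18.5, 25.6 and 48.8 in wild type, so wild-type replicates 2 and 3 carried more of these transcripts. The part of feeder RNA in the results below was not tested. In bulk RNA, a lower share of cells of a type and less RNA per cell cannot be told apart.

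The upstream windows of 3 genes are shown, those of Pou5f1 and Nr0b1 as examples whose starts match measured references and that of Nanog for its adjoining motifs. The windows of Klf4 and Tfcp2l1, whose starts match as well, are not shown. RefSeq (GRCm38.p6) gives 10 windows for 7 of the genes, and Klf5, Tbx3 and Prdm14 have none in the table used. Each run below is the 250 bases before an annotated start, on the plus strand, with matches to 6 motifs in capitals. The motifs, searched on both strands, were ATGCAAAT and ATGCAAA (the octamer of POU factors and its first 7 letters, which overlap by construction), CATTGT (the core read by Sox factors), AGGTCA (nuclear receptors), GGGCGG (the GC box) and CCACCC (the CACCC box of Klf factors).
Pou5f1, start of NM_013633.3, chr17:35505782-35506031: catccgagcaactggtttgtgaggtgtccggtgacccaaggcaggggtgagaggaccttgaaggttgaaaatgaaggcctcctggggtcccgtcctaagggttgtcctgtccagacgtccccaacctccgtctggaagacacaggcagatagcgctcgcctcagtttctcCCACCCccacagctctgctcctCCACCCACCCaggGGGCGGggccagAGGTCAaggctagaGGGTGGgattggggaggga
Pou5f1, start of NM_001252452.1, chr17:35508557-35508806: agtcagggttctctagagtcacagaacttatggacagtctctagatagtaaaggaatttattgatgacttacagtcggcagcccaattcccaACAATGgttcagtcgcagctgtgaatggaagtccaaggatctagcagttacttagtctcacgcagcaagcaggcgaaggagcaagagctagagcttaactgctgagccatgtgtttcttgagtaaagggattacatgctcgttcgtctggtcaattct
Nanog, chr6:122707239-122707488: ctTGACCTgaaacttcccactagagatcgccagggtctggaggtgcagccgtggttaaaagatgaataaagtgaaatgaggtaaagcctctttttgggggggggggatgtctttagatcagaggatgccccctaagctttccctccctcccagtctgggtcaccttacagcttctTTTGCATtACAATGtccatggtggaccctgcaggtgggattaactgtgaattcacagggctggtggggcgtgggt
Nr0b1, chrX:86191525-86191774: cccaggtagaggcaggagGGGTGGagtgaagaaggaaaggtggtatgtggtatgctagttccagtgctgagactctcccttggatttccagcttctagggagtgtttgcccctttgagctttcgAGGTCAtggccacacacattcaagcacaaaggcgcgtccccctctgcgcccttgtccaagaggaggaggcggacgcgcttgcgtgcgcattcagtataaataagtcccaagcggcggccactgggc

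The Nanog window holds ATGCAAA and CATTGT on the minus strand, 75 and 67 bases before the start and so separated by a single base. ATGCAAA was found in 4.12% of 32851 mouse windows of this length and CATTGT in 10.7%. AGGTCA lies 33 bases before the first Pou5f1 start and 126 bases before the Nr0b1 start, and 14.0% of all windows hold it. The first Pou5f1 window also holds CCACCC at 4 places and GGGCGG at 1, motifs found in 28.1% and 32.7% of all windows. No member window held the full octamer ATGCAAAT, which 1.60% of all windows hold. Of the windows not shown, that of Tfcp2l1 held none of the 6 motifs and that of Klf4 held GGGCGG only. These matches describe letters in a window and not bound sites.

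The listed positions of each reference were also compared with the bases downstream of the annotated starts. All 19 listed positions of NM_013633.3 within its first 50 bases coincided with a cytosine downstream of the first start, against 3 of 19 downstream of the second. For NM_001252452.1, the 4 listed positions in its first 50 bases all coincided with cytosines downstream of the second start, against 2 of 4 downstream of the first. Shifted by a few bases, the first start also reached 4 of 4, so this short match is weak. The same check matched 14 of 14 positions for Nr0b1, 16 of 16 for Klf4 and 9 of 9 for Tfcp2l1. Sox2 matched at 1 of 5, and Nanog NM_001289830.1 at 0 of 3 for the window shown and 1 of 3 for the other Nanog start. The tested Nanog reference was listed from position 671 on only, so no Nanog or Sox2 reference is tied to an annotated start here.

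Coverage of a reference was the mean number of reads over its cytosines listed in any library, scaled between libraries by TMM factors (trimmed mean of M-values), and serves here as an estimate of transcript abundance per length. The 10 genes spanned about 2 orders of magnitude on this scale. Pou5f1 (NM_013633.3, chromosome 17) was the highest member in every library. Its scaled coverage was 191, 183 and 161 in knockout libraries 1, 2 and 3, against 183, 246 and 204 in wild-type libraries 1, 2 and 3. The groups overlapped, with means of 178 ± 15.5 in the knockout and 211 ± 32.2 in wild type (SD, n = 3 each).

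Sox2 (NM_011443.3, chromosome 3), the partner of Pou5f1, had 54.9, 65.7 and 52.2 in the knockout against 56.2, 68.6 and 58.9 in wild type. In both genotypes replicate 2 was the highest, and the groups overlapped almost entirely. The log2 difference, knockout minus wild type, was -0.24 for Pou5f1 (SE 0.153, limma adjusted p = 0.908) with a 95% interval of -0.59 to 0.12. For Sox2 it was -0.09 (SE 0.138, limma adjusted p = 0.985), with an interval of -0.41 to 0.23. The interval of Pou5f1 reaches down to -0.59, so equal abundance was not shown. The ratio of Pou5f1 to Sox2 was 3.47, 2.78 and 3.08 in the knockout against 3.25, 3.59 and 3.46 in wild type (two-sided exact permutation p = 0.300).

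Nanog, the homeobox factor, was measured through a short stretch. Its reference NM_001289828.1 (chromosome 6) had 31 listed cytosines, at positions 671 to 803. Scaled coverage there was 9.14, 13.5 and 6.67 in the knockout, against 6.24, 4.76 and 3.71 in wild type. All 3 knockout libraries lay above all 3 wild-type libraries, by a narrow margin between knockout replicate 3 and wild-type replicate 1. A second Nanog reference, NM_001289830.1, was listed in knockout replicate 2 (4.53) and wild-type replicate 2 (0.491) and had no listed cytosine in the other 4 libraries. The accessions NM_001289831 and NM_028016 had no listed cytosine.

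Nr0b1 (NM_007430.4, chromosome X), known as Dax1, is an orphan nuclear receptor without a usual DNA-binding domain that restrains other nuclear receptors and Pou5f1. It had the second highest mean of the members in each genotype, although Sox2 was above it in wild-type replicate 2. Its values were 110, 105 and 124 in the knockout and 81.7, 62.9 and 89.3 in wild type. Every knockout library lay above every wild-type library. Means were 113 ± 9.98 in the knockout and 78.0 ± 13.6 in wild type (SD, n = 3 each). The ratio of Nr0b1 to Pou5f1 was 0.577, 0.575 and 0.773 in the knockout and 0.446, 0.255 and 0.439 in wild type. This ratio, formed within a library and so free of scaling, also did not overlap (two-sided exact permutation p = 0.100, the smallest that 3 against 3 libraries allow). Adjusted over the 4 ratios computed, the exact permutation p was 0.400 for Nr0b1 to Pou5f1 and 0.533 to 0.600 for the others.

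Tfcp2l1 (NM_023755.2, chromosome 1), a factor of the grainyhead family that acts downstream of LIF and Stat3, had 35.2, 34.0 and 28.8 in the knockout against 17.8, 17.7 and 27.4 in wild type. The groups did not overlap, but replicate 3 of the knockout (28.8) and replicate 3 of wild type (27.4) were close together. Klf5 (NM_009769.4, chromosome 14), a zinc-finger factor of self-renewal, had 54.7, 58.9 and 57.3 in the knockout against 37.7, 41.6 and 47.4 in wild type. Here too the groups were apart, and the knockout libraries were tightly grouped (57.0 ± 2.09 against 42.2 ± 4.89 in wild type, SD, n = 3 each).

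Klf4 (NM_010637.3, chromosome 4), the related zinc-finger factor, differed mainly between replicates. Its coverage was 47.6, 41.1 and 17.7 in the knockout and 29.3, 50.03 and 18.2 in wild type. Replicate 3 was the lowest library in both genotypes, and the difference between replicates exceeded that between genotypes (log2 difference 0.13, SE 0.441, limma adjusted p = 0.993, 95% interval -0.89 to 1.14). The ratio of Klf5 to Klf4 was 1.15, 1.43 and 3.23 in the knockout against 1.29, 0.832 and 2.61 in wild type, highest in replicate 3 of each (two-sided exact permutation p = 0.600). For Tfcp2l1 to Klf4 it was 0.741, 0.828 and 1.63 against 0.609, 0.354 and 1.51 in wild type (p = 0.400 by the same exact permutation test).

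**Figure D1:**
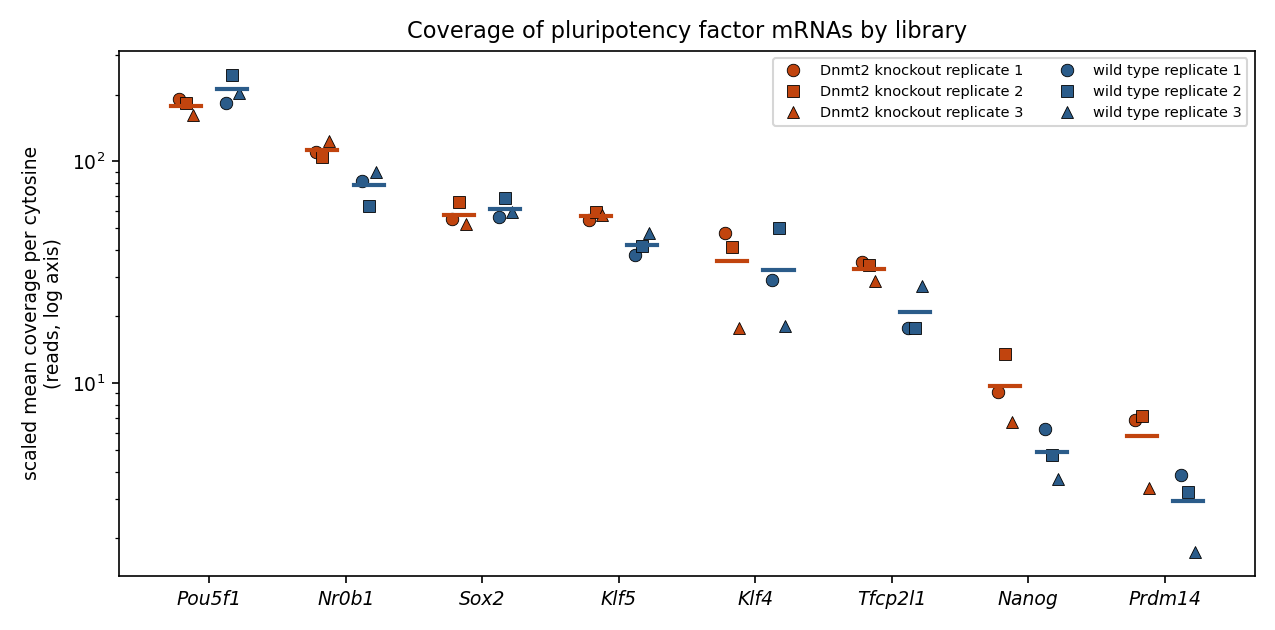
Scaled mean coverage per cytosine (reads, log axis) of 8 member references in each library, with Dnmt2 knockout left of wild type for each gene; symbols are replicates and horizontal bars are group means. Pou5f1 is highest throughout, all knockout points of Nr0b1, Klf5, Tfcp2l1 and Nanog lie above their wild-type points, and replicate 3 (triangles) is the lowest library of Klf4 in both genotypes.

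Prdm14 (NM_001081209.2, chromosome 1), a PR-domain zinc-finger protein that holds down FGF signalling and de novo DNA methyltransferase genes, was covered at 6.85, 7.14 and 3.36 in the knockout against 3.88, 3.23 and 1.74 in wild type. Knockout replicates 1 and 2 lay above all wild-type libraries, whereas knockout replicate 3 lay within their range. Tbx3, a T-box factor that sustains Nanog, was seen in 2 references (chromosome 5). NM_011535.3 had 3.65, 3.46 and 0 in the knockout against 1.03, 3.34 and 0 in wild type. NM_198052.2 had 2.94, 3.97 and 0 against 0, 1.31 and 0. Neither had a listed cytosine in replicate 3 of either genotype, which was taken as 0, and they rested on only 25 and 57 cytosines.

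The shorter Pou5f1 reference, NM_001252452.1, had 7 listed cytosines and a scaled coverage of 2.80, 1.76 and 1.49 in the knockout against 2.64, 0.526 and 0 in wild type. Esrrb (NM_001159500.1, chromosome 12), an orphan nuclear receptor that can stand in for Nanog, had 12 listed cytosines at positions 424 to 462. They were listed in knockout replicate 1 (2.56) and wild-type replicate 2 (1.84), and not in the other 4 libraries. Esrrb and the second Nanog reference did not reach the mean of 1 needed for the test.

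Low values of Nanog, Esrrb and Tbx3 do not by themselves mean low transcript levels. These genes and Pou5f1 have 2 or more NM_ accessions each, and their listed cytosines covered short stretches (Pou5f1 NM_013633.3: 159 cytosines at positions 10 to 537). The other 6 members have 1 accession and were listed along 480 to 2111 cytosines. Over all tested references, genes with 1 NM_ accession had a median of 448 listed cytosines across 2293 nt (5858 references), against 85 across 408 nt for genes with more (5324 references). The cause was not tested. Pou5f1 and Nanog also have processed pseudogenes of near-identical sequence, and how reads shared with these were placed is not given in the sources used here.

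Among members with 1 accession or well-covered references, neighbours in the order of level differed unevenly. Pou5f1 and Nr0b1 had ranges that lay apart in both genotypes. Nr0b1 and Sox2 were apart in the knockout and overlapped in wild type, while Sox2 and Klf5 overlapped in the knockout and were apart in wild type. Klf5 lay above Klf4 in every knockout library, and in wild type the ranges overlapped. Klf4 and Tfcp2l1 overlapped in both genotypes, and Tfcp2l1 lay above Prdm14 in both.

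The difference between genotypes was tested with limma on log2 of scaled coverage plus 0.5 over 11240 references with a mean of 1 or more, on which changes of low transcripts come out too small. Of the 13 member references, 11 from 9 genes entered. After Benjamini-Hochberg adjustment over all references, 0 of 11 members passed 0.05, and 0% of all references passed (smallest limma adjusted p = 0.225). At an unadjusted p under 0.05 there were 5 members (Nanog, Klf5, Nr0b1, Tfcp2l1 and Prdm14), each higher in the knockout. In that direction 2.88% of all references were below 0.05, and 6.90% in either direction.

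Nr0b1 had a log2 difference of 0.55 (SE 0.158, 95% interval 0.18 to 0.91, limma adjusted p = 0.410). Tfcp2l1 had 0.65 (SE 0.190, interval 0.21 to 1.09, limma adjusted p = 0.410). Klf5 had 0.43 (SE 0.124, interval 0.15 to 0.72, limma adjusted p = 0.402). For Nanog NM_001289828.1 the log2 difference was 0.90 (SE 0.281, interval 0.25 to 1.55, limma adjusted p = 0.445), and for Prdm14 it was 0.85 (SE 0.357, interval 0.03 to 1.68, limma adjusted p = 0.696). None of these differences passed the adjusted threshold, so they are given as values. Prdm14 had 81 listed cytosines in the shallow wild-type replicate 3, against 294 to 455 in the other libraries, and unlisted cytosines counted as 0. Its difference was 0.50 over cytosines listed in all 6 libraries and 0.57 without wild-type replicate 3. For Nanog, with 11 of 31 cytosines listed in that library, these values were 0.84 and 0.73.

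The low references were not resolved. NM_001252452.1 of Pou5f1 differed by 1.07 (SE 0.729, limma adjusted p = 0.919), and the Tbx3 references by 0.49 (SE 1.04, adjusted p = 0.993) and 1.36 (SE 1.08, adjusted p = 0.963). For Tbx3 NM_011535.3 the sign depended on single libraries, from -0.27 without wild-type replicate 3 to 1.5 at the other end. Klf4 likewise ranged from -0.23 to 0.56 when single libraries were left out.

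As a description, positive differences were found in 9 of 11 references, with a median of 0.55, against 55.2% and a median of 0.03 for all references. Members that were higher with no overlap between groups numbered 4 of 11 (Nanog, Klf5, Nr0b1 and Tfcp2l1), where 6.09% of all references were. With the opposite direction there were 0 of 11, where 5.85% of all references were. Both negative members, Pou5f1 NM_013633.3 and Sox2, belong to the founding pair. Leaving replicate 3 out of both genotypes, a count added after the values were seen, gave 7 of 11 higher members with no overlap, against 20.8% of all references. In all 3 pairs of same-numbered libraries, 6 of 11 members were higher in the knockout, against 16.3% of all references. Tbx3 NM_198052.2 reached the mean of 1 only through the knockout libraries. Without it, 8 of 10 members had positive differences (median 0.52), and 6 of 10 were higher with no overlap when replicate 3 was left out of both genotypes. These counts describe the references that passed the filter and support no direction.

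**Figure D2:**
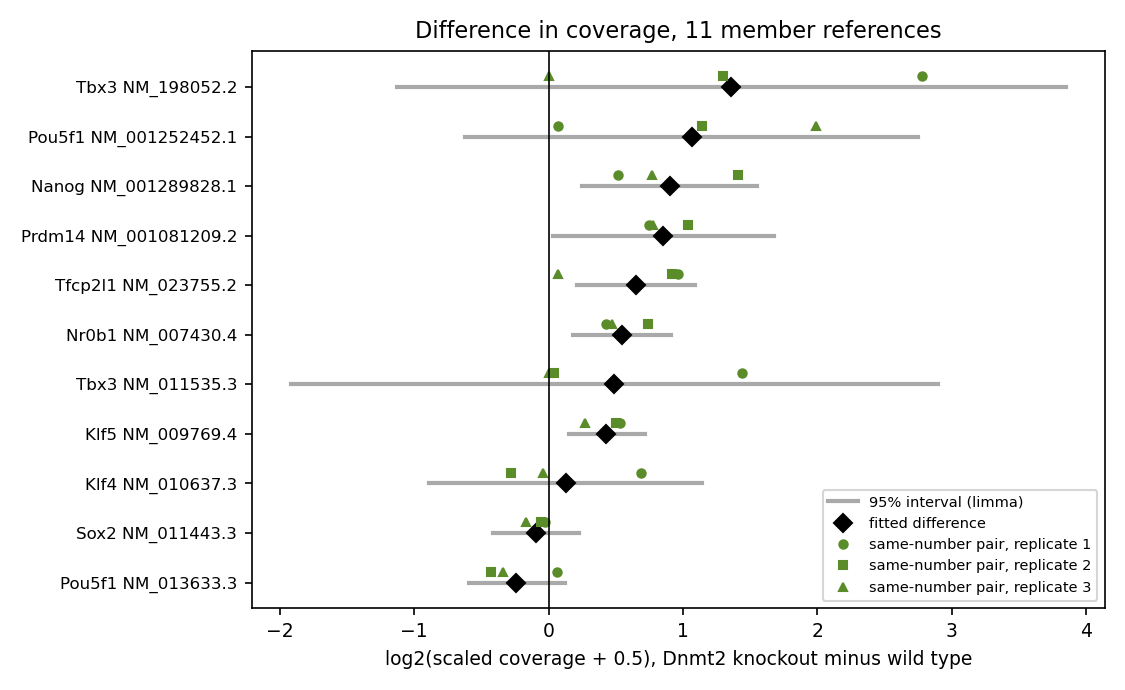
Log2 difference in scaled coverage plus 0.5 (Dnmt2 knockout minus wild type) of the 11 tested member references; diamonds are fitted differences, grey lines their 95% limma intervals, and green symbols the differences within same-numbered pairs of libraries. For Nanog, Prdm14, Tfcp2l1, Nr0b1 and Klf5 every pair is above 0, whereas Sox2 is below 0 in every pair and the intervals of Tbx3 are widest.

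Within pairs of the same replicate number, the log2 differences of Nr0b1 were 0.43, 0.74 and 0.47 for numbers 1, 2 and 3, and those of Klf5 0.53, 0.50 and 0.27. Tfcp2l1 gave 0.96, 0.92 and 0.07, so almost all of its difference came from numbers 1 and 2. Nanog NM_001289828.1 gave 0.52, 1.41 and 0.77, and Prdm14 0.75, 1.04 and 0.78. Sox2 stayed near or below 0 in each pair, at -0.03, -0.06 and -0.17.

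Across the 6 libraries, the members fell into unlike profiles. The log2 coverage of Klf5 followed that of Tfcp2l1 (Pearson r = 0.93) and of Nr0b1 (r = 0.83), and Tfcp2l1 followed Nr0b1 (r = 0.83). Pou5f1 followed Sox2 (r = 0.75) and ran opposite to Nr0b1 (r = -0.87). These values describe 6 libraries, in which genotype and depth act on all members at once, and no test is attached. A mean profile was formed from the 7 member references with 100 or more listed cytosines, the thinly covered Prdm14 among them, although these ran unlike each other. Of 4017 other references with a mean of 10 or more, those most like it were Supt6 (r = 0.968), Ucp2 (0.965), Il6st (0.96), Zswim1 (0.947) and Mapk6 (0.943). Il6st encodes gp130, the signalling subunit of the LIF receptor, and had 12.7, 12.7 and 11.9 in the knockout against 11.2, 11.7 and 11.4 in wild type. Ucp2, a mitochondrial carrier, had 29.7, 28.7 and 20.8 against 14.1, 20.0 and 16.2.

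Coverage was far from even along the member transcripts. Each listed span was divided into 3 equal segments. Klf5 was covered at 69.9 to 118 in its first segment, 6.20 to 10.8 in the middle and 29.4 to 49.9 in the last, over all 6 libraries. Nr0b1 was highest in the middle segment in each library, at 162, 154 and 180 in the knockout and 122, 89.2 and 116 in wild type. Sox2 was covered least in its last segment, at 0.270, 0.369 and 0.181 of the first in the knockout and 0.321, 0.266 and 0.222 in wild type. Prdm14 went the other way, with last-to-first ratios of 1.54, 2.68 and 4.57 in the knockout against 4.41, 1.63 and 2.59 in wild type.

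The difference of Tfcp2l1 was present in every segment of libraries 1 and 2. Its first segment had 46.5, 44.8 and 34.9 in the knockout against 22.9, 22.5 and 33.1 in wild type. The last segment had 31.7, 29.8 and 27.9 against 16.2, 17.2 and 28.6, so replicate 3 of wild type matched the knockout there. For Pou5f1 the last-to-first ratio was 3.96, 4.56 and 3.02 in the knockout and 4.29, 3.11 and 1.84 in wild type, lowest in replicate 3 of each. Over 3435 references with 100 or more cytosines, the median last-to-first ratio was 0.635, 0.668 and 0.577 in the knockout and 0.658, 0.631 and 0.573 in wild type. Replicate 3 therefore had the lowest value in both genotypes; the part of this coverage shape in the levels of Klf4, Tbx3 and Prdm14, which were also low in replicate 3, was not tested.

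**Figure D3:**
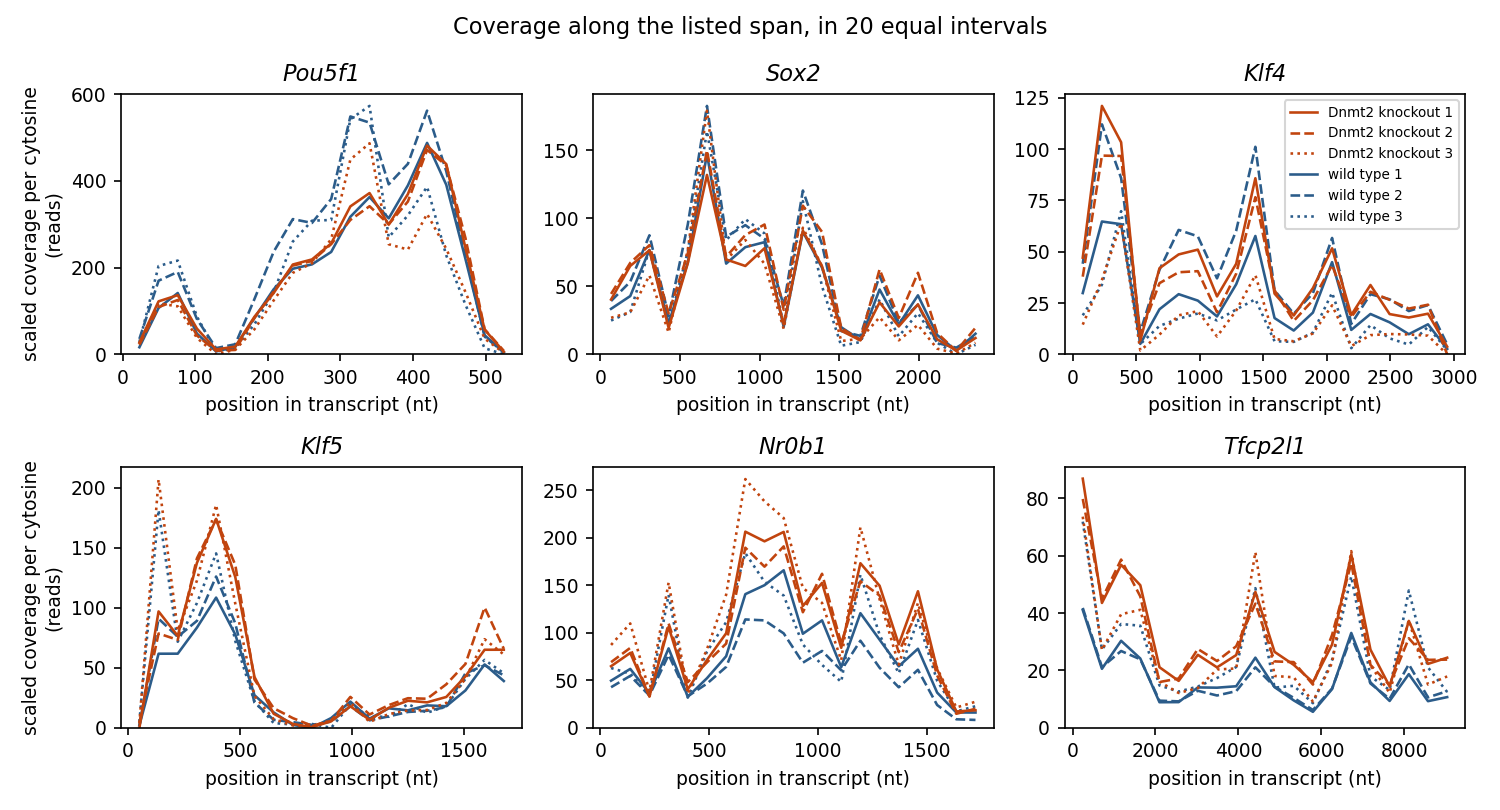
Scaled coverage per cytosine (reads) along the listed span of 6 member references in 20 equal intervals, against position in the transcript (nt); orange lines are the 3 Dnmt2 knockout and blue lines the 3 wild-type libraries, and line styles are replicates. Many peaks and troughs recur across libraries, but the highest interval of Pou5f1, Klf4 and Klf5 lies elsewhere in replicate 3 of both genotypes. The knockout lines are above wild type along most of Nr0b1, while in Klf4 the dotted lines of replicate 3 lie lowest of their genotype along most of the span.

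Non-conversion of the member mRNAs was low and close to that of the library in which each was measured. It was computed from non-converted and total reads over the cytosines listed in all 6 libraries. Over 1975045 such cytosines of all mRNAs, the pooled value was 1.85%, 1.85% and 1.47% in the knockout and 1.66%, 1.49% and 1.59% in wild type. Knockout replicate 3 was the lowest library, below the other knockout replicates.

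Sox2 had 2.13%, 2.15% and 1.72% in the knockout against 1.74%, 1.68% and 1.62% in wild type, over 523 cytosines and 13001 to 66726 reads. It was above the pooled value of its own library in 6 of 6 libraries, by 0.0318 to 0.303 percentage points, and was the only member to be so. In wild-type replicates 1 and 3 its 95% Wilson interval (1.59% to 1.90% and 1.42% to 1.85%) held the pooled value. The share of all transcripts above their library's value in as many libraries is not given here, so this is not read as a trait of Sox2. Pou5f1 had 1.97%, 2.16% and 1.47% against 1.83%, 1.56% and 1.80% over 140 cytosines, above the pooled value in 5 of 6 libraries. The widest 95% Wilson interval for Pou5f1 was that of wild-type replicate 3, 1.58% to 2.06%, and such intervals cover counting error only, since the reads carry no molecular identifiers and may repeat a molecule.

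Tfcp2l1 had 1.80%, 1.80% and 1.40% in the knockout against 1.62%, 1.42% and 1.61% in wild type over 1566 cytosines. Nr0b1 had 1.84%, 1.87% and 1.47% against 1.64%, 1.56% and 1.37%, Klf4 1.87%, 1.74% and 1.44% against 1.57%, 1.42% and 1.43%, and Klf5 1.82%, 1.69% and 1.46% against 1.79%, 1.42% and 1.50%. These 4 transcripts were above the pooled library value in 1 or 2 of 6 libraries. Prdm14 was thinly measured, at 1.08%, 1.99% and 1.19% against 1.54%, 1.44% and 0.939% over 48 cytosines and 213 to 741 reads. Nanog had 8 such cytosines and Esrrb and Tbx3 had none.

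**Figure D4:**
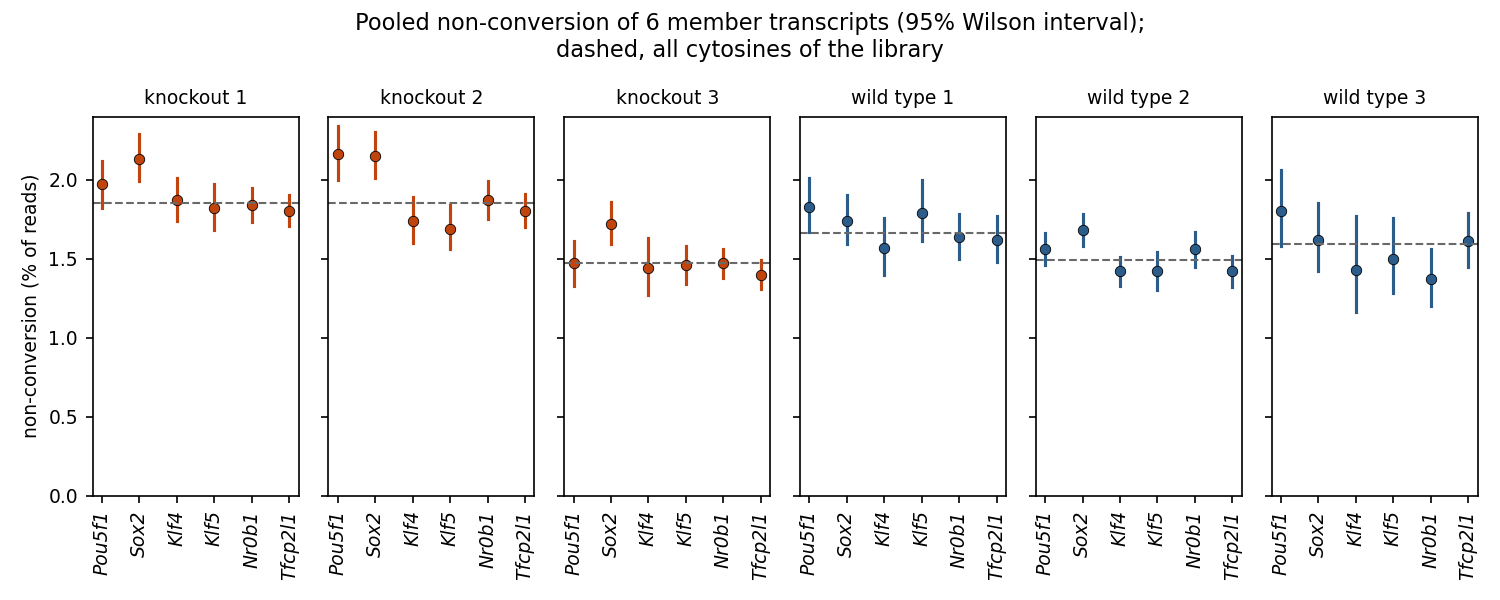
Non-conversion (% of reads) of 6 member transcripts in each library, Dnmt2 knockout libraries left of wild type; points are pooled values, vertical lines 95% Wilson intervals, and dashed lines the value over all mRNA cytosines of that library. Most points lie on or near their dashed line, which is highest in knockout replicates 1 and 2, and Sox2 lies above it in all 6 panels.

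Between genotypes, 0 of 7 member transcripts passed an adjusted p under 0.05 in the edgeR quasi-likelihood test of non-converted against converted reads, where 0.0151% of 6625 transcripts did. With no adjustment 0 of 7 were under 0.05, where 2.72% of all transcripts were, and DESeq2 also called 0 members. Sox2 had the largest estimate, a log2 odds difference of 0.25 (edgeR adjusted p = 0.919). The 7 estimates ran from 0.02 for Prdm14 to that of Sox2, and 0 of 7 were higher with no overlap between the genotypes, where 6.11% of all transcripts were. The pooled value over all mRNAs was 1.85%, 1.85% and 1.47% in the knockout against 1.66%, 1.49% and 1.59% in wild type. Its part in the sign of these estimates was not tested.

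A single library decided this result. Without knockout replicate 3, 4 of 7 members passed in edgeR, namely Sox2 (log2 odds 0.35, adjusted p = 0.0132), Nr0b1 (0.27, adjusted p = 0.0336), Klf4 (0.30, adjusted p = 0.0458) and Tfcp2l1 (0.24, adjusted p = 0.0496). In that fit 10.9% of 6673 transcripts were called higher in the knockout, 729 of the 731 called in all. With replicate 3 left out of both genotypes, 0 of the members passed, although Sox2 was at an edgeR adjusted p of 0.0540, and 113 of 7761 transcripts overall did. The pooled non-conversion of the libraries moved with these values, and its part in them was not tested.

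Single cytosines were compared next. With 10 or more reads in all 6 libraries there were 2153 member cytosines, of which 712 were in Tfcp2l1, 406 in Nr0b1, 382 in Sox2, 294 in Klf5, 228 in Klf4 and 131 in Pou5f1. Their median non-conversion, averaged over the libraries, was 1.54%, against 1.51% for all 741725 mRNA cytosines so covered. A mean of 5% or more was reached by 28 members (1.30%, against 1.10% of all), and of these 10 were in Tfcp2l1, 8 in Sox2, 5 in Pou5f1, 4 in Nr0b1 and 1 in Klf5. No member cytosine had a mean of 10% or more, where 0.0615% of all did, and the highest member mean was 8.21%.

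None of the 28 member cytosines passed an adjusted p under 0.05 between genotypes in edgeR, where 0% of 8181 tested cytosines did. At an unadjusted p under 0.05 there was 1 of 28, in Pou5f1, against 2.44% of all tested cytosines. Klf4 had no cytosine with a mean of 5% or more, its highest being 4.17%.

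**Figure D5:**
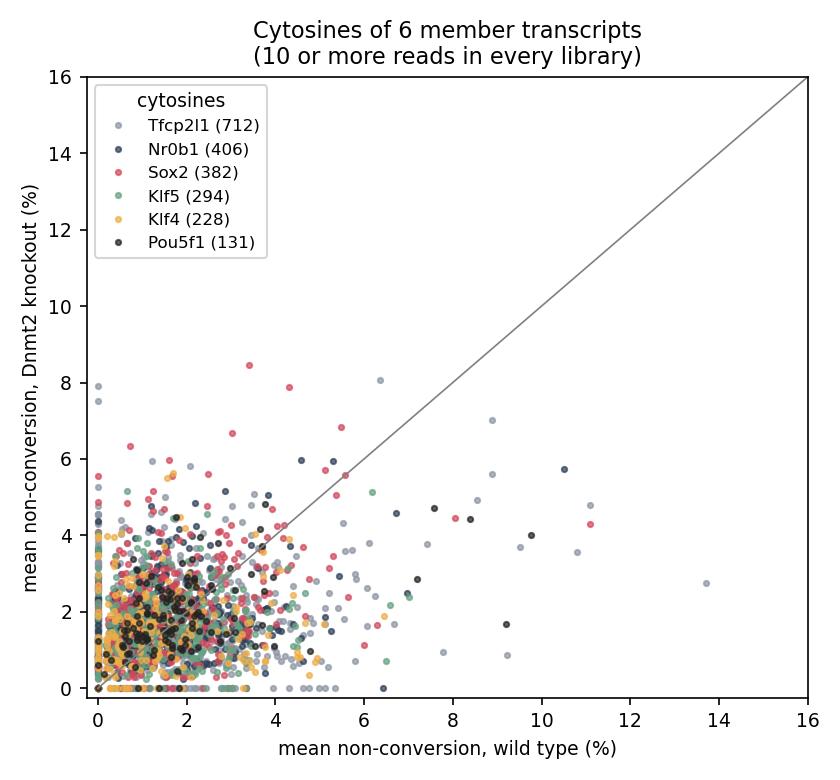
Mean non-conversion (%) of 2153 member cytosines in the 3 Dnmt2 knockout libraries (vertical axis) against the 3 wild-type libraries (horizontal axis); each point is a cytosine with 10 or more reads in every library, colours are genes with their number of cytosines, and the line marks equality. Nearly all points lie below 6% on both axes, and the points farthest to the right include Tfcp2l1 and Pou5f1 cytosines that were high in wild-type replicate 3 alone.

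In each genotype on its own, a member cytosine counted as methylated when its reads exceeded the background of each library in binomial tests combined over the 3 libraries, at an adjusted p under 0.05 and with 10% or more non-conversion in every library. In the knockout, 1 of 3543 member cytosines was called (0.0282%), close to the 0.0283% of all mRNA cytosines. In wild type 0 of 2155 were called, where 0.0212% of all were, and 0 combined an unadjusted p under 0.05 with the 10% minimum.

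The called cytosine was position 1625 of Tfcp2l1, numbered from 1 at the reference's 5′ end. It was non-converted in 10 of 52, 4 of 38 and 7 of 43 reads in the knockout (19.2%, 10.5% and 16.3%, adjusted p = 3.81e-10 of the combined binomial tests). In wild type it was non-converted in 4 of 21, 3 of 35 and 0 of 4 reads (19.0%, 8.57% and 0%). Replicates 1 and 2 of wild type were thus close to the knockout values, and the site was not tested in wild type because replicate 3 had only 4 reads, where a count of 0 has an exact Clopper-Pearson 95% upper bound of 60.2%. The listed cytosines at 1615, 1619 and 1623 on one side were at 0% to 5.88% in all libraries, and 1629 on the other side at 0% to 11.1%. In each knockout library these neighbours were below position 1625. The 11.1% at 1629, in knockout replicate 3, was nevertheless above the 10.5% of position 1625 in knockout replicate 2. Without knockout replicate 3, the calls became 3 of 3926 member cytosines tested. The share over all mRNA cytosines in that setting is not given here, so this count is not read as a result about the members. Called beside 1625 were Klf4 position 1106 (20.0% and 20.0% in knockout replicates 1 and 2, at 20 and 15 reads) and Tfcp2l1 position 4943 (47.1% and 15.0%, at 17 and 20 reads). At Klf4 position 1106, knockout replicate 3 had 0 of 3 reads and wild-type libraries 1 of 12, 0 of 46 and 0 of 7. At position 4943, knockout replicate 3 had 5 of 9 reads and wild-type replicate 2 had 1 of 10, with no listed reads in wild-type replicates 1 and 3.

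The member cytosines with the highest means differed from this pattern. Among the 10 highest, 5 lie between positions 624 and 630 of Tfcp2l1. In wild-type replicate 3 they were non-converted in 3 to 5 of 15 reads each (20.0% to 33.3%), whereas wild-type replicates 1 and 2 were at 0% to 7.69% and the knockout libraries at 0% to 13.5%. Pou5f1 had a like run in the same library: positions 105 to 109 were at 19.4% to 23.3% in wild-type replicate 3, at 30 to 31 reads. There the other wild-type libraries were at 0% to 5.51% and the knockout libraries at 0% to 9.38%. Both runs were seen in wild-type replicate 3, and reads that cover neighbouring cytosines are shared between them.

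The remaining high cytosines stood in other contexts. Nr0b1 position 133 had 4.44%, 7.55% and 5.19% in the knockout against 17.2%, 7.69% and 6.67% in wild type, at 15 to 77 reads. Sox2 position 461 had 2.86%, 10.0% and 0% against 12.0%, 5.97% and 15.4%. Tfcp2l1 position 985 was highest in knockout replicate 3, at 17.2%, and position 6572 in wild-type replicate 3, at 18.2% of 11 reads. For each of these 10 highest cytosines the edgeR adjusted p between genotypes was 0.999.

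Other genes of the circuit, taken from lists of textbook members, gave no call in either direction at an adjusted p under 0.05 in limma. Of 21 tested references of network partners, 16 had positive differences (median 0.29), where 55.2% of all references did. A Stat3 reference (mean 2.48 in the knockout, 0.445 in wild type) passed the coverage filter through the knockout only. The most covered partner genes were Zfp42 (Rex1), at 366, 360 and 360 in the knockout against 408, 300 and 353 in wild type, and Klf2, at 126, 113 and 101 against 150, 198 and 184. Both lie on chromosome 8, where 628 tested references had a median log2 difference of -0.51 and 91.2% were negative, against a median of 0.05 and 42.1% on the other chromosomes.

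Mybl2, Mycn and Foxd3 were the partners that were higher with no overlap, 3 of 21 references where 6.09% of all references were. Foxd3, a forkhead factor chosen here after its values were seen, had 12.1, 10.5 and 7.51 in the knockout against 2.38, 2.64 and 1.75 in wild type (log2 difference 1.93, SE 0.237, limma adjusted p = 0.225). Klf2, Thap11 and Smad1 were lower with no overlap (3 of 21, where 5.85% of all references were), and all 3 lie on chromosome 8.

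Known targets of the members had 8 positive differences in 12 references (median 0.30), where 55.2% of all references were positive. A Spp1 reference (mean 2.43 in the knockout, 0 in wild type) passed the coverage filter through the knockout only. Tdgf1, the Nodal co-receptor Cripto, had 250, 274 and 151 in the knockout against 242, 187 and 147 in wild type. Lefty1, a Nodal antagonist, had 103, 94.8 and 117 against 195, 137 and 209, lower with no overlap (log2 difference -0.76, SE 0.184, limma adjusted p = 0.375). In this list 2 of 12 references were lower with no overlap, where 5.85% of all references were, and 1 of 12 was higher, where 6.09% were. The LIF pathway had 5 positive differences in 8 references (median 0.07), with its feedback inhibitor Socs3 at 34.7, 30.7 and 33.4 against 33.1, 30.2 and 34.1. A Ptpn11 reference (mean 2.50 in the knockout, 0.938 in wild type) passed the coverage filter through the knockout only. Beside the 55.2% of all references that were positive, the positive counts of these lists support no direction. Il6st was higher with no overlap (1 of 8, where 6.09% of all references were). The ligand-binding subunit Lifr (NM_013584.2: 5.65, 5.48 and 5.59 against 5.81, 7.32 and 5.68) and the kinase Jak1 (4.89, 5.28 and 5.39 against 6.47, 6.26 and 5.93) were lower with no overlap (2 of 8, where 5.85% were). The log2 differences of Il6st, Lifr and Jak1 were small, at 0.12, -0.15 and -0.24 (limma adjusted p = 0.976 for each). A second Lifr reference, NM_001113386.1, overlapped between the groups.

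Early lineage genes were low. Of 13, Cdx2, Eomes, Fgf5, Foxa2, Hand1 and Sox17 had no listed cytosine, and the 6 tested references had a median difference of -0.21 with 3 positive. Lower with no overlap were 2 of 6 (Sox1 and Pax6), where 5.85% of all references were, and 0 were higher, where 6.09% were. Pax6 (0.424, 0 and 0 in the knockout against 1.19, 3.02 and 2.82 in wild type) passed the coverage filter through wild type only. Gata4, Gata6 and T passed it through the knockout only, so these counts support no direction. Nes, the most covered, had 4.07, 4.59 and 11.7 in the knockout against 6.69, 7.96 and 16.4 in wild type, highest in replicate 3 of both. Sox1, a neural factor on chromosome 8, had 1.09, 1.44 and 0.848 against 4.35, 4.32 and 2.58. All 9 feeder fibroblast references were negative (median -0.56), where 55.2% of all references were positive. Dcn (mean 0 in the knockout, 2.74 in wild type) and Col3a1 (0.740 and 1.67) passed the coverage filter through wild type only. Lower with no overlap were 4 of 9, where 5.85% of all references were, and 0 of 9 were higher, where 6.09% were. These counts support no direction. The list was led by Col1a2 at 4.87, 4.63 and 3.33 against 5.92, 6.21 and 10.8 and Col1a1 at 4.91, 3.57 and 1.62 against 4.24, 8.23 and 6.36.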

How the data were processed

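The deposited values are, per the file headers, the coverage of each cytosine of an mRNA reference, a raw count of reads, and its unconversion ratio. That ratio is a fraction from 0 to 1, which the authors formed from non-converted reads. Per the submitters' processing notes BSMAP and build mm9 were used; no version or filter is given in the sources used here. No listed coverage was below 3, so an unlisted cytosine was taken as 0 in coverage. In 20824445 entries the product of coverage and ratio differed from a whole number by at most 8.0e-10 (tolerance 0.01), which gave the non-converted read counts. Of the references, 15239 matched a gene symbol in a RefSeq gene table of GRCm38.p6, used for names and chromosomes only.

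Mean coverage was scaled by TMM (edgeR 4.0.16), filtered at a mean of 1 and tested with limma 3.58.1 (trend, R 4.3.3) on log2 of the value plus 0.5. Non-conversion was tested with the edgeR quasi-likelihood test, with library terms and a genotype by conversion-state interaction, per transcript (200 or more summed reads in every library) and per cytosine (10 or more reads, mean of 5% or more). Background was the non-conversion pooled within a library over cytosines with 10 or more reads and at most 10%. Methylated calls used 1-sided exact binomial tests in SciPy 1.17.1, combined by Fisher's method. Benjamini-Hochberg adjustment ran over all features. DESeq2 1.42.0, other scalings, filters, pseudocounts, a replicate block and left-out libraries were alternatives. The scripts were tested on simulated data.

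The members, lists and tests were chosen with earlier results of these data known. Named by rule were all members, and member cytosines that were called or among the 10 highest means. The rule also took the 2 most covered genes of each list and the 5 references of most similar profile. Mybl2, Mycn, Foxd3, Thap11, Smad1, Lifr, Jak1 and Pax6 were named outside this rule, after their values were seen, because their groups did not overlap. Other list references of this kind were not named. List references named for passing the coverage filter through their higher genotype only were also outside the rule. Deviations from the group means of same-numbered libraries correlated at 0.248, 0.138 and 0.578, all above the 0.1 set for pairing. The numbers were therefore used as pairs in the replicate block and the same-number differences, which rests on the data and not on the labels. The main tests were unpaired. Numbers 1 and 2 were not separate, since knockout 2 correlated at 0.488 with wild type 1 and knockout 1 at 0.154 with wild type 2; replicate 3 stood apart from both.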

Additional observations from a re-analysis of the deposited data

How the results depend on the processing

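Depth limits the cytosine results: median coverage was 6 to 11 reads, and Nanog, Esrrb, Tbx3 and Prdm14 had no cytosine with 10 reads in all libraries. With the replicate block, 0 member references passed in coverage (Nr0b1 had the adjusted p nearest the threshold, 0.174 in limma), 0 member transcripts and 0 member cytosines passed in edgeR, and the block changed no call of a member. The median difference of the members was 0.50 to 0.74 with single libraries left out, and the other scalings moved the median of all references by no more than 0.01. The number of member transcripts called in non-conversion was 0 to 4 with single libraries left out, 4 arising without knockout replicate 3. The number of methylated member cytosines in the knockout was 0 at a minimum non-conversion of 20%, 1 to 3 with single libraries left out, and 3 without replicate 3 of both genotypes. The shares over all mRNA cytosines in these settings are not given here. Direction reversed for Sox2 coverage (0.02 over cytosines listed in all 6 libraries). With single libraries left out it reversed for the coverage of Klf4 (-0.23 to 0.56) and Tbx3 NM_011535.3 (-0.27 to 1.5), and for the non-conversion log2 odds of Prdm14 (-0.30 to 0.19), Pou5f1 (-0.01 to 0.28) and Klf5 (-0.002 to 0.18). Where a left-out library is the setting, fewer samples were used; otherwise the cause was not tested. Of the alternatives tried on counts of calls, 46 left the count within 1.5 times and 4 moved it. Of those on single values and on counts over all features, 266 kept direction and side of the threshold, 4 passed it newly, 10 reversed and 13 moved.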
